A study of Mus musculus with 2 samples.

Results

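The genes that encode the proteins of the cytosolic ribosome were followed across the cell types of post-ischemic mouse kidney. Members were chosen by symbol from the gene list of the count tables: Rpl or Rps followed by a digit, Rplp0, Rplp1, Rplp2 and Rpsa, without pseudogene symbols (-ps) and without the Rps6k kinases. The rule took 86 of 32285 genes. Of these, 77 are standard ribosomal protein genes (43 of the large subunit, 31 of the small subunit and 3 of the stalk), 8 are paralogs with a closely related name, and 1, Rps19bp1, is no ribosomal protein although its symbol matches. At least 1 unique molecular identifier (UMI, the count of captured RNA molecules) was found in the kept cells for 85 of the 86, and the exception was Rpl10l.

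The study used male C57BL/6 mice, 9 weeks old, with bilateral renal ischemia-reperfusion. Kidney cells were sequenced singly from 1 mouse that received JPI-289, a PARP inhibitor, at 100 mg/kg into the peritoneal cavity just before reperfusion, and from 1 that received saline, the control, both at 24 h. There was no uninjured kidney in these files, so both libraries come from injured tissue. With 1 library in each group no test between the groups is possible, and every interval below covers counting error only, at 95%.

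Ribosomes are built from a large and a small subunit, and cells make the proteins of both in step with each other. Their mRNAs are abundant, short and stable, and most begin with a run of pyrimidines at the 5′ end (the TOP motif), through which mTORC1 signalling sets how much of them is translated. Resting lymphocytes keep a large share of their mRNA in these genes, mature neutrophils and red blood cells a small share. Malat1 and Neat1, used below beside the members, are long RNAs that stay in the nucleus.

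The control library held 3682 and the JPI-289 library 4978 kept cells. The median cell had 2105.5 UMIs in the former and 1890.5 in the latter, and 23 cell barcodes occurred in both. Cells were grouped without the 86 genes into 24 clusters, of which 20 could be named from marker lists. The classes are called proximal tubule (PT)-like, loop of Henle and distal tubule (LOH/DT)-like, collecting duct (CD)-like, endothelial cell (EC)-like, neutrophil-like and macrophage-like, with 4 smaller classes. Doublets were not removed. The own list gave most marker UMIs in PT-like, EC-like, neutrophil-like, macrophage-like, stroma-like and red blood cell-like cells of both libraries, for example 1322 and 1240 of 10000 UMIs for neutrophil markers (the control is given before JPI-289 in all pairs of values). Other own lists were less alike between the libraries, with 158.3 and 54.6 in macrophage-like and 182.4 and 93.6 in stroma-like cells. In CD-like cells the list of injured PT, which other injured tubules also express, gave 106.0 and 81.6 of 10000 UMIs beside 120.2 and 72.8 for the CD list. In LOH/DT-like cells it gave 66.5 and 37.5 beside 67.4 and 72.4. PT markers exceeded the own list in control podocyte-like cells (69.7 against 62.0) and in lymphocyte-like cells of both libraries (24.0 and 10.99 against 21.1 and 10.3). Free RNA, judged from markers of other classes, made up at most 1.55% and 10.2% of the UMIs of CD-like cells. Ratios with free RNA subtracted are given in the closing section. The part of other mixed RNA in the values below was not tested.

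The share of UMIs that came from the ribosomal protein genes differed more between cell types than between the libraries. The share was highest in lymphocyte-like cells, at 16.7% for 6 control cells and 29.7% for 97 JPI-289 cells. Macrophage-like cells followed among the large classes with 13.5% and 15.4%, then EC-like cells with 12.1% and 12.7%, and CD-like cells with 12.8% and 9.52%. PT-like cells, which reabsorb most of the filtrate, gave 9.62% and 10.7%, and LOH/DT-like cells 8.61% and 7.77%. Neutrophil-like cells were far lower with 3.24% and 4.38%, and red blood cell-like cells lowest with 1.45% and 2.03%. The exact binomial intervals of these shares were narrow, for example 9.60 to 9.64% in control PT-like cells, because each rests on many UMIs. Barcodes under 100 UMIs, which hold free RNA from broken cells, gave 6.73% and 6.68%. The share in neutrophil-like, podocyte-like (4.26% and 2.68%) and red blood cell-like cells was thus below that of free RNA.

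**Figure D1:**
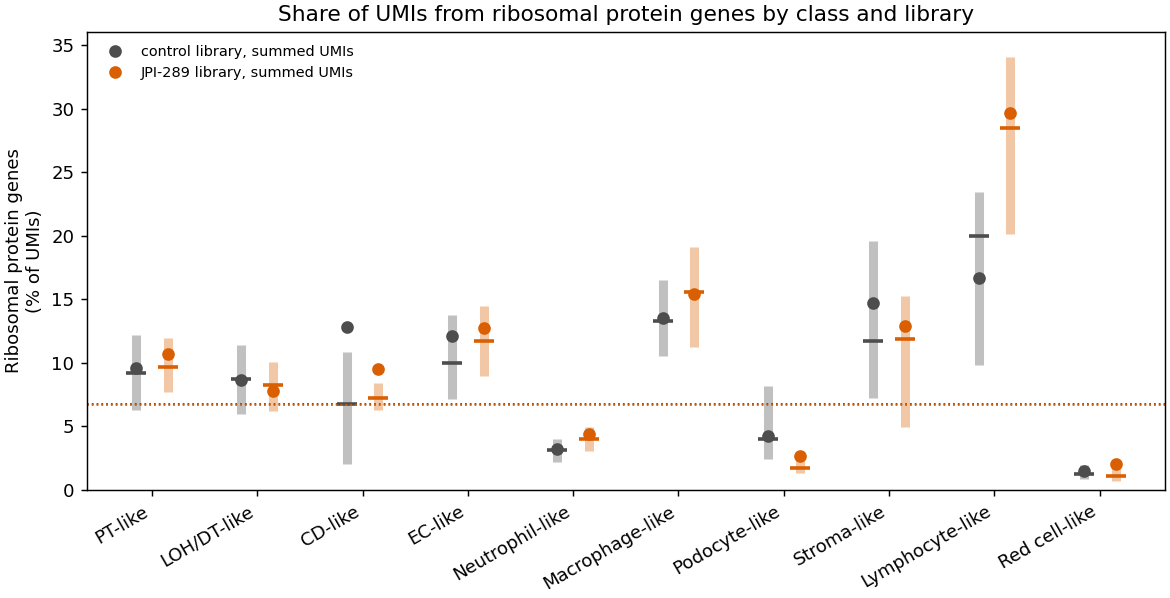
Share of UMIs from the 86 ribosomal protein genes (y axis, %) in each class (x axis) for the control (grey) and the JPI-289 library (orange). Points are summed UMIs, short bars the median cell, thick bars the quartiles over cells, and dotted lines the barcodes under 100 UMIs at 6.73 and 6.68%; the classes run from 1.45% in control red blood cell-like cells to 29.7% in JPI-289 lymphocyte-like cells.

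Compared to the control, the PT-like cells of the JPI-289 library gave a higher summed share, with a log2 ratio of 0.15 (0.15 to 0.16), or 1.11-fold. The median cell held 9.23% and 9.70%. The class was made of different clusters in each library: 825 and 636 of the 1691 control cells lay in clusters 2 and 3, led by Npl and Keg1 and by Tmem174 and Slc13a3, while 969, 336 and 286 of the 1603 JPI-289 cells lay in clusters 18, 22 and 17, led by Srxn1 and Plin2, by Fgb and Fgg, and by Inmt and Kap. A cluster mostly of 1 library may be that library and not a type. Over the class, the injured PT list gave 4.45 and 19.6 of 10000 UMIs, and the PT list 198.7 and 125.6. All PT-like ratios in this report therefore compare cells unlike in these markers, and the part of this difference in them was not tested. The mitochondrial share was 10.8% and 9.36%, and cells rich in nuclear RNA were unequally spread. A PT-like cluster of 178 control cells and 0 JPI-289 cells gave only 1.09% of its UMIs to ribosomal protein genes and 18.1% to Malat1 and Neat1. A like cluster of 56 control and 252 JPI-289 cells, with 25.1% Malat1 and Neat1 and 1.37% ribosomal protein genes, could not be named because no marker was among its leading genes. Without the first cluster the log2 ratio of PT-like cells was 0.04, with the other cluster added it was 0.03, and without all cells of at least 10% Malat1 and Neat1 it was 0.04, at 10.4% against 10.7%. In that last setting the median cell held 9.86% and 9.72%, opposite in order to the median over all PT-like cells. No ratio was taken for a PT-like cluster alone, since each held under 50 cells of a library. Cluster 18 gave 14.7% in 45 control and 11.5% in 969 JPI-289 cells, opposite in order to the class. The control share was also the higher in clusters 2, 3 and 17, with only 5, 7 and 6 cells of the smaller library. In cluster 22, with 1 control cell, the control share was the lower.

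**Figure D2:**
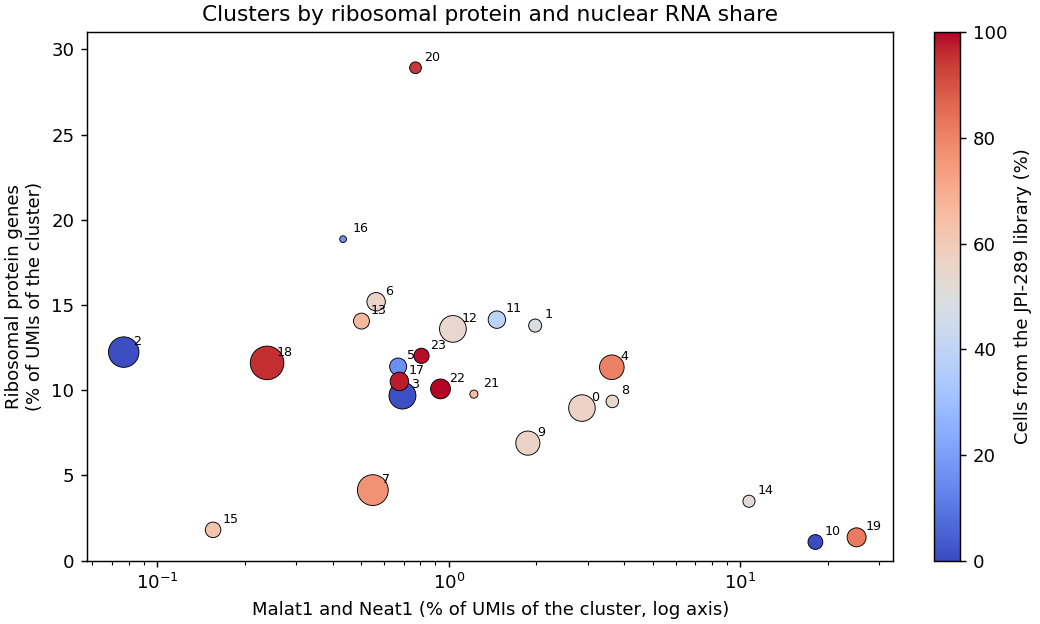
Each circle is a cluster, placed by its Malat1 and Neat1 share (x axis, % of UMIs, log axis) and its ribosomal protein share (y axis, % of UMIs), sized by its number of cells and coloured by the percentage of its cells from the JPI-289 library; numbers are the clusters. Clusters 10 and 19 at the lower right, with 18.1 and 25.1% nuclear RNA, lie at 1.09 and 1.37%, and cluster 20, lymphocyte-like, lies at the top.

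EC-like cells line the vessels. Their summed share was higher in the JPI-289 library by a log2 ratio of 0.07 (0.07 to 0.08), and the median cell held 9.96% and 11.7%. The clusters inside this class did not go the same way. The cluster led by Apln, Esm1 and Edn1, which had 291 control and 342 JPI-289 cells, gave 14.2% and 12.8%, with a log2 ratio of −0.16. The other clusters were unequally filled: that led by Plvap and Ly6c1 had 205 and 39 cells at 10.5% and 14.1%, and that led by Igfbp3, Plat and Kdr had 2 and 187 cells. The sign of the EC-like value therefore differed between the whole class and its best filled cluster. All EC-like ratios of single genes and gene groups in this report are for the whole class. They compare unlike mixes of clusters, and the part of this difference in them was not tested.

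In the distal nephron the ribosomal protein share was lower in the JPI-289 library, but again not in every cluster. The log2 ratio was −0.15 (−0.16 to −0.14) in LOH/DT-like cells. It was −0.27 in the cluster led by Umod and Slc12a1, genes of the thick ascending limb (9.94% against 8.22%, 271 and 354 cells), and 0.08 in the cluster led by Slc12a3 and Calb1, genes of the distal convoluted tubule (6.68% against 7.07%, 228 and 284 cells). By depth, LOH/DT-like cells of 2000 to under 5000 UMIs also went the other way, with 6.86% in 90 control and 7.83% in 131 JPI-289 cells. At 5000 UMIs or more, 83 control cells gave 8.98% and 122 JPI-289 cells 7.46%. In CD-like cells the log2 ratio was −0.43 (−0.44 to −0.42), the largest difference among the 6 main classes downward. The cluster led by Aqp2, the water channel of principal cells, gave 14.01% and 9.67% (−0.53), and that led by Slc26a4 and Foxi1, genes of intercalated cells, gave 9.79% and 8.64% (−0.18).

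The CD-like value rested largely on deep cells, which gave unlike parts of the UMIs of each library. In the control, 67 of 159 CD-like cells had at least 5000 UMIs and gave 87.4% of the UMIs of the class, with a ribosomal protein share of 14.1%. The 79 JPI-289 cells of that depth gave 58.1% of the UMIs of their class, with a share of 11.4%. From 1000 to under 2000 UMIs the order was the opposite, with 2.95% in 34 control cells and 6.58% in 301 JPI-289 cells, and from 2000 to under 5000 UMIs it was 3.61% in 28 and 7.51% in 70 cells. Those control cells held 18.97% and 13.3% Malat1 and Neat1, against 4.99% and 11.3% in the JPI-289 cells. The median CD-like cell held 6.73% and 7.23%, opposite in order to the summed shares. This also held at 5000 UMIs or more, where the median cell held 10.05% and 10.99%. Under 1000 UMIs the median cell held 7.88% and 8.02%, while the summed shares were 8.58% and 7.21%. Giving each cell equal weight left a log2 ratio of −0.10, and leaving out the 5% deepest cells of each library left −0.12. Without cells of at least 10% Malat1 and Neat1, 45 control and 63 JPI-289 CD-like cells, the log2 ratio stayed at −0.43. The median cell then held 8.89% and 7.40%, in the same order as the summed shares.

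**Figure D3:**
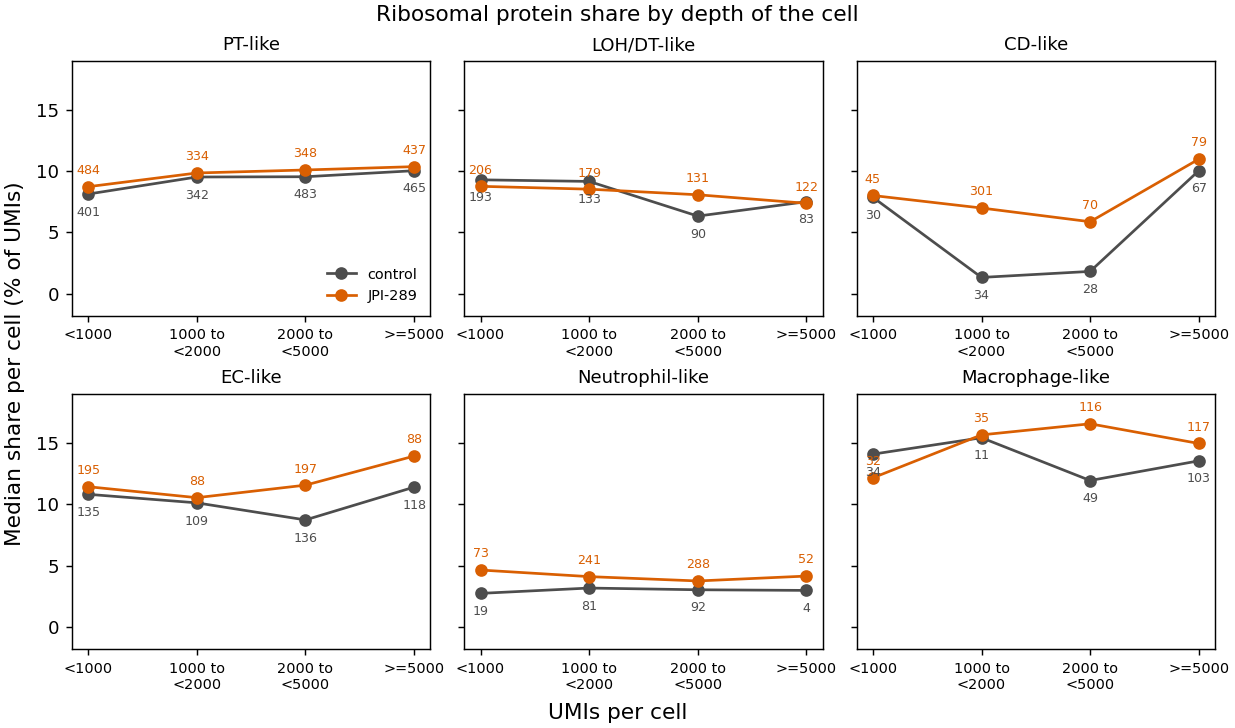
Median ribosomal protein share per cell (y axis, % of UMIs) by the number of UMIs of the cell (x axis, 4 bins) in the 6 main classes, for the control (grey) and JPI-289 (orange) library; small numbers are cells. In CD-like cells the control median is 1.33% from 1000 to under 2000 UMIs and 10.05% at 5000 UMIs or more, while the lowest JPI-289 median is 5.88%.

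Both leukocyte classes were higher in the JPI-289 library, and kept that sign under each alternative setting of the processing. Neutrophil-like cells formed 1 cluster, with 196 cells of the control and 654 of the other library. Their log2 ratio was 0.43 (0.41 to 0.46), or 1.35-fold, and the median cell held 3.10% and 4.0%. The JPI-289 value was the higher in all 4 depth bins, with ratios from 0.29 to 0.61, although the deepest bin held only 4 control cells. In macrophage-like cells the log2 ratio was 0.19 (0.18 to 0.20), with a median cell of 13.3% and 15.6%. Here the cluster led by H2-Aa, Cd74 and C1qa gave 0.22 (128 and 160 cells) and that led by Fn1, Lyz2 and Arg1 gave 0.19 (69 and 140 cells). The higher value did not hold in the shallowest macrophage-like cells, where 34 control cells gave 15.7% and 32 JPI-289 cells 14.5%. From 1000 to under 2000 UMIs, 11 control and 35 JPI-289 cells both gave 15.2%. The log2 ratio was 0.39 from 2000 to under 5000 UMIs and 0.15 at 5000 UMIs or more.

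The smaller classes held fewer cells and carry less weight. Podocyte-like cells gave 4.26% (54 cells) and 2.68% (57 cells), a log2 ratio of −0.67, but Malat1 and Neat1 made up 4.10% of their control and 17.6% of their JPI-289 UMIs. Without the cells rich in those RNAs, 11 and 49 of them, the podocyte-like ratio turned to 0.35. Stroma-like cells gave 14.7% (156 cells) and 12.9% (99 cells). The lymphocyte-like ratio of 0.83 was set by 6 control cells. In red blood cell-like cells the ratio was 0.49, and it turned to −0.08 with equal weight of each cell and to −0.12 without the deepest cells.

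The ratios of the ribosomal protein genes lay close together within each class. In PT-like cells, for the 84 members with at least 20 UMIs, the median log2 ratio was 0.18 with quartiles of 0.06 and 0.27, while 134 other genes as abundant as the members had a median of −0.02 with quartiles of −0.32 and 0.34. Over the other settings, which include those on nuclear RNA, the PT-like member median lay between 0.06 and 0.37. The values of the other abundant genes in those settings are not given. The members' quartiles spanned 0.21 in PT-like, 0.26 in LOH/DT-like, 0.26 in CD-like, 0.27 in EC-like, 0.41 in neutrophil-like and 0.18 in macrophage-like cells. The other medians were −0.15, −0.40, 0.04, 0.45 and 0.20 in LOH/DT-like, CD-like, EC-like, neutrophil-like and macrophage-like cells. Over all genes measured, the median was −0.19 in PT-like, −0.08 in LOH/DT-like, −0.08 in CD-like, −0.17 in EC-like, 0.10 in neutrophil-like and −0.04 in macrophage-like cells. Relative to those medians the members lay at 0.37, −0.07, −0.32, 0.22, 0.35 and 0.23 in the same order, so no sign changed with this scaling.

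Counts of members that differed by at least 0.32 on the log2 scale were set beside those of all genes measured, which include genes with as few as 20 UMIs. In PT-like cells 15 of 84 members were higher and 3 lower, beside 28.4% and 44.5% of all genes. With the cells rich in nuclear RNA left out, 7 were higher, and the share of all genes in that setting is not given. In EC-like cells 8 of 82 were higher and 5 lower, beside 24.8% and 43.0%. In LOH/DT-like cells 1 of 82 was higher and 14 lower, beside 27.6% and 36.2%. In these 3 classes a smaller share of members than of all genes passed in either direction on this scale. Relative to the median of all genes, 48 members were higher and 2 lower in PT-like cells, 21 and 2 in EC-like cells, and 3 and 6 in LOH/DT-like cells. The shares of all genes on that centred scale are not given. The percentages above are therefore no background for these counts, and no reading is drawn from them. In CD-like cells 0 of 82 were higher and 55, or 67.1%, were lower, beside 29.3% and 38.0%. With equal weight of each cell 13 were lower and 7 higher, and without the deepest cells 11 and 1. The shares of all genes in those settings are not given either, so these counts have no background here. In neutrophil-like cells 52 of 82, or 63.4%, were higher and 2 lower, beside 38.8% and 29.4%. In macrophage-like cells 14 of 83 were higher and 1 lower, beside 32.0% and 36.5%, although 73 of the 83 lay above 0.

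**Figure D4:**
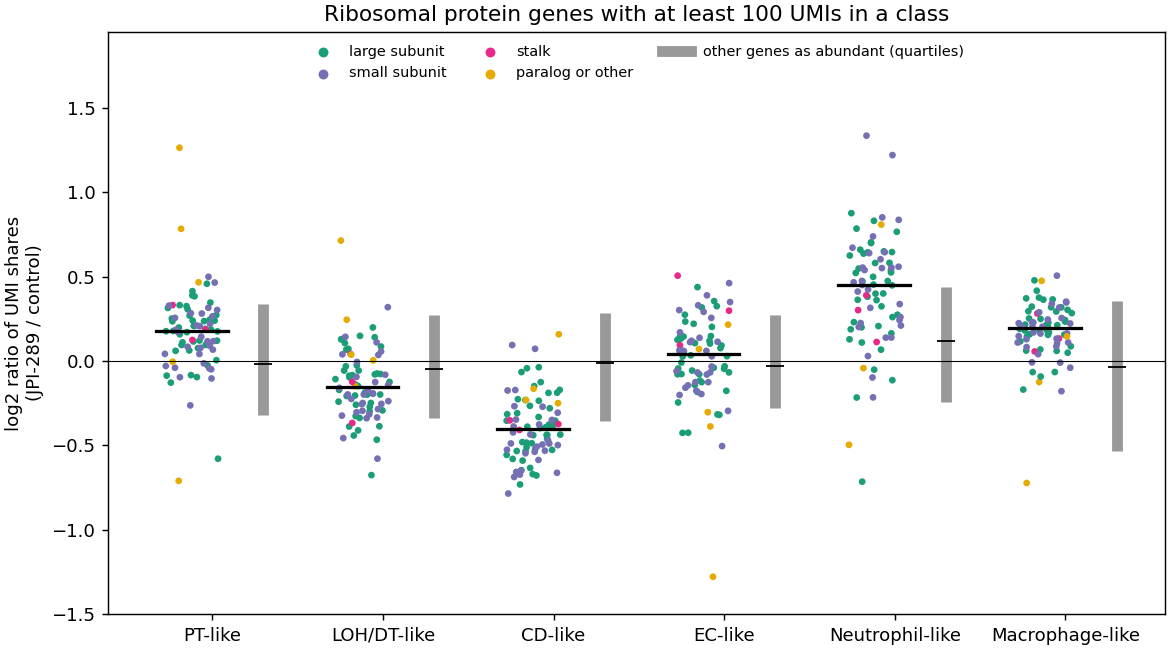
Log2 ratio of UMI shares, JPI-289 over control (y axis), of each ribosomal protein gene with at least 100 UMIs in a class (points, coloured by subunit), with the median of measured members (black line) and, in grey, the quartiles of other genes as abundant. The points of CD-like cells lie almost all below 0 and those of neutrophil-like cells mostly above 0, with medians of −0.40 and 0.45, and a few paralogs lie apart from the rest.

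Standard large subunit genes gave a summed log2 ratio of 0.17 and small subunit genes 0.12 in PT-like cells, −0.40 and −0.47 in CD-like cells, and 0.46 and 0.43 in neutrophil-like cells. The UMIs of large subunit and stalk genes stood to those of small subunit genes as 1.35 to 1 in control and 1.41 to 1 in JPI-289 PT-like cells. This ratio was lower in leukocytes, at 1.18 and 1.19 in neutrophil-like and 1.22 and 1.247 in macrophage-like cells. It was 1.40 and 1.43 in LOH/DT-like and 1.40 and 1.47 in CD-like cells. The stalk, which recruits the elongation factors to the ribosome, stood at 0.31 (0.27 to 0.35) on the log2 scale in EC-like cells against 0.05 for the large and 0.07 for the small subunit. It was also above both in stroma-like cells, at 0.17 against −0.20 and −0.23. It was above both by less in PT-like (0.18 against 0.17 and 0.12), LOH/DT-like (−0.11 against −0.14 and −0.17) and CD-like cells (−0.38). The same order held in podocyte-like and lymphocyte-like cells. It was below both in neutrophil-like cells, at 0.28 (0.15 to 0.40) against 0.46 and 0.43, and in macrophage-like (0.14 against 0.22 and 0.18) and red blood cell-like cells. The stalk made up 5.07% of member UMIs in control and 5.96% in JPI-289 EC-like cells.

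Rps2, Rpl13, Rplp0 and Rpl41 were among the members with most UMIs. Rps2, a small subunit protein at the mRNA entry side, gave 34.7 and 35.7 of 10000 UMIs in PT-like cells, 39.2 and 54.0 in EC-like cells, and 6.60 and 8.87 in neutrophil-like cells. Its log2 ratio was 0.04 in PT-like and 0.46 (0.42 to 0.51) in EC-like cells. Rpl13 gave 26.5 and 28.3 in PT-like and 38.6 and 26.6 in CD-like cells. Rpl41, the smallest ribosomal protein, gave 23.6 and 28.5 in PT-like cells. Of these values, Rps2 in EC-like cells lay farthest above the median member of its class.

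The stalk was led by Rplp0, its scaffold. In EC-like cells Rplp0 gave 24.7 and 35.1 of 10000 UMIs, the highest ratio of any member with at least 100 UMIs there, at 0.51 (0.45 to 0.56). Rpl32 came next to Rps2 with 22.3 and 30.3 (0.44). The acidic stalk proteins Rplp1 and Rplp2 gave 0.09 (0.04 to 0.15) and 0.30 (0.21 to 0.38) in EC-like cells. In PT-like cells Rplp0, Rplp1 and Rplp2 gave 0.12, 0.19 and 0.33. The lowest members in EC-like cells were Rpl7l1 with −1.28 (−1.81 to −0.79), Rps21 with −0.50 and Rpl37a with −0.43. Rpl7l1, a paralog of Rpl7, rested on 129 and 46 UMIs and was at −0.64 with equal weight of each cell. Relative to the median of all genes Rps21 was at −0.33 and Rpl37a at −0.25.

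A few members left the median of the tubule classes. Rps27, a zinc finger protein of the small subunit, gave 4.20 and 5.94 of 10000 UMIs in PT-like cells, a log2 ratio of 0.50 (0.43 to 0.57; 0.33 with clusters drawn at a resolution of 0.5), and 4.6 and 5.74 in LOH/DT-like cells, 0.32 (0.18 to 0.46). In CD-like cells, where the median member was at −0.40, Rps27 gave 0.07 (−0.07 to 0.21). Rpl22l1, the paralog of Rpl22, gave 2.45 and 4.22 in PT-like cells (0.78, from 0.70 to 0.87), 1.79 and 2.94 in LOH/DT-like cells (0.71), and 0.16 in CD-like cells. Rpl22 itself gave −0.03, −0.41 and −0.67 in those classes, so the paralog was above its standard gene in all 3. This order was not particular to the tubule. Of member UMIs in EC-like cells Rpl22 made up 0.73% and 0.52%, and Rpl22l1 0.24% and 0.24%. In neutrophil-like cells Rpl22 made up 0.57% and 0.36%, and Rpl22l1 0.15% and 0.19%. In macrophage-like cells the values were 0.57% and 0.48% for Rpl22, and 0.20% and 0.25% for Rpl22l1. Rps6, the target of the S6 kinases, gave 6.94 and 9.58 in PT-like cells (0.47) and 0.09 (−0.02 to 0.21) in CD-like cells. Rpl22l1, Rps6 and Rps27 were the 3 of 82 members above 0 in CD-like cells, each with an interval that includes 0. With equal weight of each cell Rps6 and Rpl22l1 were at 0.42 and 0.37 there, and without the deepest cells Rps6 was at 0.32.

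Rpl3, which lies near the peptidyl transferase centre, went the other way. It gave 10.6 of 10000 UMIs in control and 7.13 in JPI-289 PT-like cells, a log2 ratio of −0.58 (−0.63 to −0.53), and 11.9 and 7.13 in CD-like cells (−0.73). The CD-like value was −0.22 with equal weight of each cell and −0.13 without the deepest cells. In neutrophil-like cells, where most members were higher, Rpl3 gave 1.954 and 1.19 (−0.72, from −1.09 to −0.33). It was at −0.44 in LOH/DT-like, −0.32 in EC-like and −0.07 in macrophage-like cells. Its share of member UMIs in barcodes under 100 UMIs was also lower in the JPI-289 library, 0.73% against 1.29% in the control. Rps19, whose loss causes Diamond-Blackfan anemia in people, gave −0.26 in PT-like and −0.69 in CD-like cells and 0.14 in EC-like cells. Rps24, another gene of that disease, was lowest in CD-like cells at −0.79 (28.9 against 16.8). With equal weight of each cell Rps19 and Rps24 were at −0.29 and −0.39 in CD-like cells, and without the deepest cells at −0.37 and −0.54. Relative to the median of all genes Rps19 was at −0.07 in PT-like cells.

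Rps19bp1 and Rpl7l1 marked the ends of the range in PT-like cells. Rps19bp1, known as an activator of Sirt1, rested on 295 control and 644 JPI-289 UMIs, a log2 ratio of 1.27 (1.07 to 1.47), and gave 0.25 (−0.32 to 0.83) in LOH/DT-like cells. Rpl7l1 gave −0.71 (−0.95 to −0.48) in PT-like and −0.72 (−1.32 to −0.14) in macrophage-like cells. It was at −0.41 in PT-like cells with clusters drawn at a resolution of 0.5 and at −1.47 in macrophage-like cells with equal weight of each cell. In LOH/DT-like cells the lowest members were Rpl39 with 8.38 and 5.24 of 10000 UMIs (−0.68), Rps12 with −0.58 and Rpl36a with −0.47.

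In neutrophil-like cells the highest members were Rps15 with 0.64 and 1.65 of 10000 UMIs (1.34, from 0.80 to 1.98), Rps14 with 3.77 and 8.82 (1.22) and Rpl11 with 4.32 and 7.96 (0.88). The lowest were Rpl3, Rpl36al at −0.50 (−0.91 to −0.06) and Rpl22 at −0.22 (−0.58 to 0.17). In macrophage-like cells the highest were Rps14 with 15.5 and 22.1 (0.51), Rpl24 with 13.4 and 18.7 (0.48) and Rpl22l1 (0.48), and the lowest beside Rpl7l1 were Rps26 (−0.18) and Rpl36a (−0.17). Rps14 and Rpl11 were thus above the median of both leukocyte classes, and Rps14 was the highest or next to highest member in each.

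Some members also have a role outside the ribosome. Rpl5 and Rpl11, which with 5S rRNA bind Mdm2 and stabilise p53 when ribosomes are not completed, gave 0.32 and 0.24 in PT-like cells and −0.25 and 0.06 in EC-like cells. Rpsa, also known as a laminin receptor, gave 0.17 in PT-like, 0.26 in EC-like and −0.67 in CD-like cells. Rps27a, which is made fused to ubiquitin, gave 17.2 and 21.2 of 10000 UMIs in PT-like cells (0.30) and 20.01 and 25.2 in EC-like cells (0.33). Rpl26, which can bind the p53 mRNA, gave 0.06 and −0.08. The members on the X chromosome had no shared direction: in PT-like cells Rpl10 gave 0.41, Rpl36a −0.13, Rpl39 −0.09 and Rps4x −0.03.

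Of the paralogs, Rpl10l had no UMI in any kept cell, and Rpl39l had 1. Rpl3l, a form of Rpl3 in striated muscle, had 49 control and 45 JPI-289 UMIs over all cells, 32 and 22 of them in PT-like cells. Rps27rt had 44 and 79 UMIs and is nearly the same in sequence as Rps27, so reads could be split between them. Rpl36al, the autosomal copy of Rpl36a, gave 5.92 and 8.19 of 10000 UMIs in PT-like cells (0.47, against −0.13 for Rpl36a), but −0.39 in EC-like cells. Rps27l, a target of p53, gave 6.31 and 6.29 of 10000 UMIs in PT-like cells, a log2 ratio between −0.06 and 0.05, against 0.50 for Rps27. In EC-like cells it gave 0.22 (0.06 to 0.37).

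The start sites of members described above, and of Rps18, whose share varied between cell types, are given next, because the 5′ pyrimidine run is the sequence feature that ribosomal protein mRNAs are known for. Each window holds 20 bases before and 10 from the RefSeq start onward on GRCm38.p6, and capitals mark a run of at least 6 pyrimidines that begins with C and reaches within 10 bases of the start on the strand of the gene. Rps27 (chr3:90213639-90213668, minus strand), Rps6 (chr4:86857358-86857387, minus), Rps18 (chr17:33955656-33955685, minus), Rplp2 (chr7:141447631-141447660, plus) and Rpl22l1 (chr3:28805488-28805517, plus) hold a run. Rplp0 (chr5:115559447-115559476, plus), Rpl7l1 (chr17:46782647-46782676, minus) and Rps19bp1 (chr15:80264297-80264326, minus) hold none in the window.
Rps27: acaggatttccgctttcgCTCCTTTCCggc
Rps6: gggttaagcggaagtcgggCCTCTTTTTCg
Rps18: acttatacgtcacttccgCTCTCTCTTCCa
Rplp2: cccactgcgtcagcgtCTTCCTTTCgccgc
Rpl22l1: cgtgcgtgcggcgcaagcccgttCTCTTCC
Rplp0: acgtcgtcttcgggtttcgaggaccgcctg
Rpl7l1: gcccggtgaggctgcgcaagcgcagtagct
Rps19bp1: accgccagggcggaagtagctcgccgcgtg

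The RefSeq table held 66 of the 86 members. A run was found for 38 of them, or 57.6%, and for 34 of 57 standard members, beside 25.9% of all 27025 symbols in the table. The same run on the opposite strand was found for 9.09% of members and 29.1% of all symbols. The rule for the run was set after the windows had been seen. A match describes these letters only, and RefSeq starts can lie some bases from the start that a cell uses. Standard members with and without a run had like ratios, with medians of 0.18 and 0.17 in PT-like, −0.43 and −0.41 in CD-like, 0.11 and 0.03 in EC-like, and 0.40 and 0.50 in neutrophil-like cells. These differences were smaller than the quartile range of either group.

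The make-up of the ribosomal protein UMIs also differed between cell types, and did so alike in both libraries. For 72 members with at least 50 UMIs in each main class and library, the share of member UMIs was set against its mean over the 6 classes. The median SD over the classes was 0.22 on the log2 scale. The members that varied most were Rps9, Rps27, Rps27l, Rpl10a, Rpl3 and Rps18. Rps9, of the small subunit, made up 6.50% of member UMIs in control and 5.54% in JPI-289 neutrophil-like cells, 2.50% and 2.55% in macrophage-like cells, and between 1.14% and 1.504% in the other 4 main classes. Rps27 made up 1.83% and 1.57% in neutrophil-like cells and 0.44% and 0.56% in PT-like cells.

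Other members were low in neutrophil-like cells. Rpl10a made up 0.50% and 0.42% of member UMIs there, against 1.28% and 1.16% in PT-like cells. Rps18 made up 0.65% and 0.64%, against 1.30% and 1.41%, and Rpl3 0.61% and 0.27%, against 1.11% and 0.67%. Rps27l separated the tubule from the macrophages, with 0.66% and 0.59% in PT-like cells and 0.18% and 0.17% in macrophage-like cells. In barcodes under 100 UMIs Rps9 made up 1.54% and 1.61% and Rps27 0.36% and 0.41%, so the neutrophil-like values were unlike those of free RNA. The deviations of the 72 members from their mean had a Pearson correlation between the libraries of 0.88 in neutrophil-like, 0.91 in macrophage-like, 0.85 in PT-like and 0.76 in CD-like cells. These are across genes that share a library and its free RNA, and are given as a description.

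**Figure D5:**
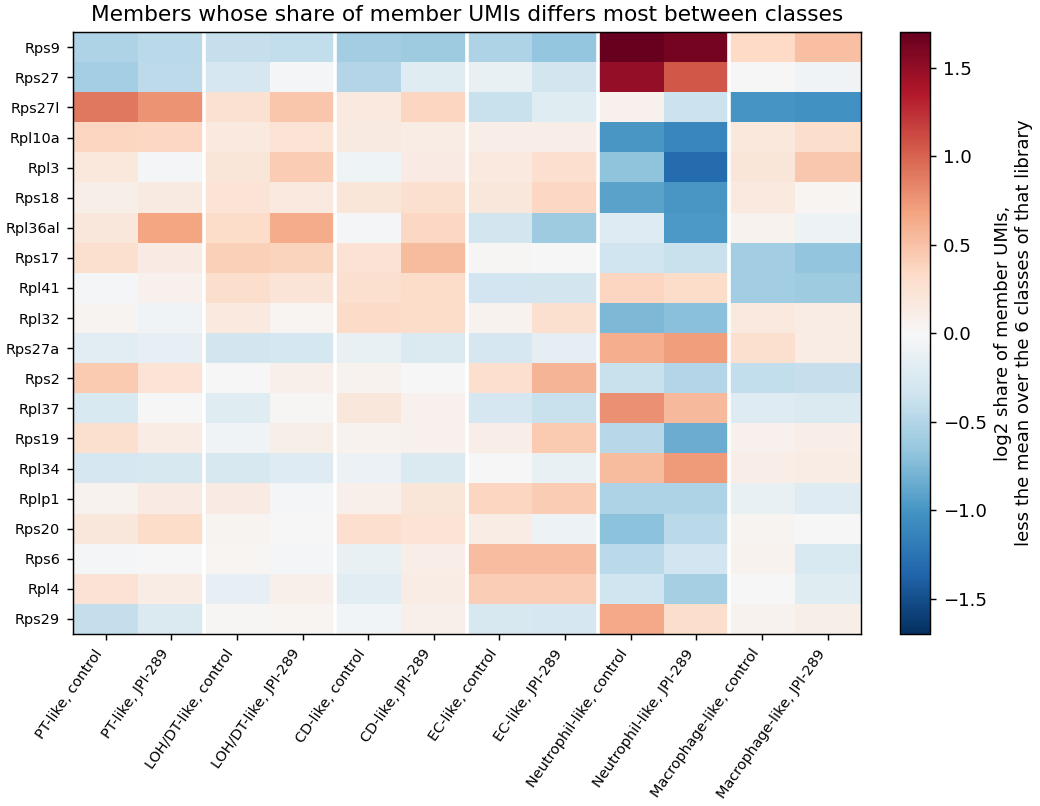
Log2 share of member UMIs, less its mean over the 6 main classes of the library (colour), for the 20 members that differ most (rows) in each class and library (columns). Rps9 and Rps27 are high in neutrophil-like cells of both libraries, at 1.71 and 1.63 for Rps9, and Rps27l is low in macrophage-like cells of both, at −1.01 and −1.02.

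Genes that work with the ribosome were counted from fixed lists, past 0.32 on the log2 scale as above. All counts of these lists are over whole classes, with the cells rich in nuclear RNA included. Of 25 other genes with a TOP motif or bound to the ribosome, 13 (52%) were higher and 1 (4.0%) lower in PT-like cells, beside 28.4% and 44.5% of all genes. In EC-like cells 3 (12%) and 2 (8.0%) were so, beside 24.8% and 43.0%, and in CD-like cells 2 (8.0%) and 13 (52%), beside 29.3% and 38.0%. In LOH/DT-like cells 8 (32%) and 1 (4.0%) were so, beside 27.6% and 36.2%. In neutrophil-like cells 13 (52%) and 5 (20%) were so, beside 38.8% and 29.4%, and in macrophage-like cells 8 (32%) and 2 (8.0%), beside 32.0% and 36.5%. Tpt1, which encodes a growth related TOP mRNA, gave 0.26 in PT-like, 0.16 in CD-like and 0.48 in macrophage-like cells. Eef1a1, the elongation factor that brings tRNA, gave 0.19 in PT-like and −0.02 in CD-like cells. Fau, a ribosomal protein made as a fusion whose symbol the rule does not match, gave −0.56 in CD-like cells and 0.22 in neutrophil-like cells. Rack1, a scaffold on the small subunit, gave 0.36 in PT-like and −0.05 in CD-like cells. In EC-like cells Fau, Tpt1, Eef1a1 and Rack1 gave −0.14, −0.05, −0.03 and 0.01. Npm1 and Nap1l1, both chaperones of histones, gave 1.04 and 1.18 in PT-like cells, and Eif3k and Eif4a2, initiation factors, gave −0.31 and −0.38. In EC-like cells Btf3 gave 0.73 and Hnrnpa1 0.64, and Eif3k −0.68 and Eef1d −0.53.

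Of 32 ribosome biogenesis genes, 17 (53.1%) were higher and 4 (12.5%) lower in PT-like cells, beside 28.4% and 44.5% of all genes. In EC-like cells 11 (34.4%) were higher and 5 (15.6%) lower, beside 24.8% and 43.0%. In macrophage-like cells 3 of 31 (9.68%) were higher and 15 (48.4%) lower, beside 32.0% and 36.5%. The counts were 10 and 5 of 31 in LOH/DT-like cells (32.3% and 16.1%, beside 27.6% and 36.2%). They were 10 and 6 of 29 in CD-like cells (34.5% and 20.7%, beside 29.3% and 38.0%). In neutrophil-like cells only 11 were measured, with 5 higher and 2 lower (45.5% and 18.2%, beside 38.8% and 29.4%). In PT-like cells Gar1, of the pseudouridylation particles, gave 106 and 339 UMIs (1.81) and Nip7 236 and 518 UMIs (1.27), while Polr1b, a subunit of RNA polymerase I, gave −1.01 and Rrs1 −0.78. In EC-like cells Nob1, which cuts the small subunit rRNA precursor, gave 1.05 and Gnl3 0.73, and Nop10 −0.48 and Polr1c −0.28 (−0.83 to 0.26). The median of the biogenesis genes was opposite in sign to that of the ribosomal protein genes in macrophage-like (−0.30), LOH/DT-like (0.16) and CD-like cells (0.18).

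Regulators of ribosomal protein synthesis were called about as often as all genes in PT-like cells, with 4 (20%) higher and 8 (40%) lower of 20, beside 28.4% and 44.5%, and in EC-like cells, with 6 (28.6%) and 8 (38.1%) of 21, beside 24.8% and 43.0%. In CD-like cells 8 (40%) of 20 were higher and 3 (15%) lower, beside 29.3% and 38.0%. The counts were 4 and 7 of 19 in LOH/DT-like cells (21.1% and 36.8%, beside 27.6% and 36.2%). They were 5 and 3 of 16 in neutrophil-like cells (31.25% and 18.75%, beside 38.8% and 29.4%). In macrophage-like cells they were 6 and 6 of 19 (31.6% each, beside 32.0% and 36.5%). Eif4ebp1, which holds back cap-dependent translation when mTORC1 is off, gave 530 and 2645 UMIs in PT-like cells (2.46, from 2.32 to 2.60) and 186 and 112 UMIs in EC-like cells (−0.53). It was above 0 in the other main classes, at 0.50 in LOH/DT-like and 0.57 in CD-like cells. In neutrophil-like and macrophage-like cells it gave 0.22 (−0.06 to 0.51) and 0.20 (−0.03 to 0.43), with intervals that include 0. In PT-like cells Rheb, the activator of mTORC1, gave 0.59, and Rps6ka1 and Deptor gave −2.38 and −1.02. Ddit4, which restrains mTORC1, gave 386 and 1507 UMIs in EC-like cells (2.16), where Larp4 gave 0.80, Rps6ka3 −0.72 and Myc −0.88.

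The mitochondrial ribosome is encoded by separate nuclear genes. Of 78 mitochondrial ribosomal protein genes, 15 (19.2%) were higher and 24 (30.8%) lower in PT-like cells, both below the 28.4% and 44.5% of all genes, with a median of −0.08 against 0.18 for the cytosolic genes. In EC-like cells 4 (5.13%) were higher and 43 (55.1%) lower, beside 24.8% and 43.0%, with a median of −0.43. In CD-like cells 10 (12.8%) were higher and 43 (55.1%) lower, beside 29.3% and 38.0%, with a median of −0.38 against −0.40 for the cytosolic genes. The counts were 10 and 29 in LOH/DT-like cells (12.8% and 37.2%, beside 27.6% and 36.2%), 17 and 25 of 63 in neutrophil-like cells (26.98% and 39.7%, beside 38.8% and 29.4%), and 14 and 31 of 76 in macrophage-like cells (18.4% and 40.8%, beside 32.0% and 36.5%). In EC-like cells Mrpl14 gave 188 and 22 UMIs (−2.87) and Mrpl17 380 and 80 (−2.04), while Mrpl9 gave 1.03 and Mrps30 0.96. In PT-like cells Mrps36 gave −1.59 and Mrpl18 −1.05, and Mrps30 gave 1.21 and Mrps18b 0.99.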

How the data were processed

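Kidney cell suspensions of both mice were made into libraries with the 10x Genomics 5′ kit, in which a UMI marks the 5′ end of an mRNA molecule. The tables that the authors deposited hold UMI counts, not normalized, for every barcode (Cell Ranger 5.0.1 and mm10, per the submitters' processing notes), with no filter on cells. The control library holds 38328760 and the JPI-289 library 35548396 UMIs.

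Cells were called by total UMIs and, from 500 UMIs, by the difference from the profile of empty droplets (10000 simulations, false discovery rate 0.01), giving 4211 and 5360 cells. Cells over 50% mitochondrial UMIs (529 and 382) were left out, and doublets were not removed. Clusters came from scanpy 1.11.5 (2000 variable genes without the 86 members, 30 components, 20 neighbours, resolution 1), and were named from marker lists by a rule set with the clusters known. Platelet-led, urothelium-led and unclear clusters (4) stayed unnamed. Counts were summed per class and library. The log2 ratio compares shares of all UMIs after adding 0.5 UMIs, with an exact binomial interval for how the counts split. Genes with at least 20 UMIs over both libraries were measured, and a difference of at least 0.32 on the log2 scale was counted. The ratio steps were tested on simulated data. Cells are not replicates, and no p-value was computed.

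Members and lists were chosen with earlier results of these data known. The genes named are, by rule, the 5 members with most UMIs, the 3 highest and 3 lowest of each main class with at least 100 UMIs, the 6 that vary most between classes, a fixed set of stalk, X-linked, extraribosomal and paralog genes, and, of the other lists, the 2 highest and 2 lowest in PT-like and EC-like cells. Tpt1, Eef1a1, Fau, Rack1 and Eif4ebp1 (the last only outside PT-like cells) were named beyond that rule, with their values known. The results of some genes are not reported here. The effect of 11 other settings, and of 4 chosen after seeing the data, is given in the closing section. Python 3.11.15, numpy and scipy were used. Promoter sequences are those of RefSeq.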

Additional observations from a re-analysis of the deposited data

Results flagged for a closer look

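The summed log2 ratio of the ribosomal protein genes had counting intervals on opposite sides of 0 in different classes of the same library pair. It was above 0 in PT-like (0.15), EC-like (0.074), neutrophil-like (0.43) and macrophage-like cells (0.19), and below 0 in LOH/DT-like (−0.15) and CD-like cells (−0.43). The difference between classes was not tested, since each value compares 1 library with 1 library.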

How the results depend on the processing

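The summed ratio of neutrophil-like cells lay between 0.36 (equal weight of each cell) and 0.50 (free RNA subtracted), with 0.43 as reported. Macrophage-like cells gave 0.17 with equal weight, 0.20 at up to 20% mitochondrial UMIs, 0.21 over nuclear genes, 0.22 with free RNA subtracted and 0.22 in the C1qa cluster (cluster 6). PT-like cells gave 0.13 over nuclear genes, with equal weight and when clustered with the members, 0.14 at up to 20% mitochondrial UMIs, at resolution 0.5 and without the 5% deepest cells, and 0.038, 0.035 and 0.045 in the settings on nuclear RNA (without cluster 10, with cluster 19, and without cells of at least 10% Malat1 and Neat1). CD-like cells gave −0.45 at up to 20% mitochondrial UMIs, −0.40 at resolution 0.5, −0.39 with free RNA subtracted, −0.10 with equal weight, −0.12 without the deepest cells, and −0.53 and −0.18 in clusters 4 and 8. LOH/DT-like cells gave −0.11 over nuclear genes, −0.23 clustered with the members, −0.10 with equal weight, −0.080 without the deepest cells, −0.19 without cells of at least 10% Malat1 and Neat1, and −0.27 and 0.081 in clusters 0 and 9, the latter opposite in sign. EC-like cells gave 0.13 with equal weight, 0.14 without the deepest cells and −0.16 in cluster 12, opposite in sign.

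Red blood cell-like cells changed sign with equal weight (summed −0.082, median member −0.088) and without the deepest cells (−0.12 and −0.13), and podocyte-like cells without those of at least 10% Malat1 and Neat1 (0.35 and 0.43). Of 372 values of named members under the alternatives, 325 stayed within their counting interval and 47 left it, and none that was called changed sign. Rps19bp1 in LOH/DT-like cells, which was not called, went from 0.25 to −0.05 with equal weight and to −0.01 without the deepest cells. Centred on all genes, 48 members were higher by at least 0.32 in PT-like cells and 21 in EC-like cells, against 15 and 8. The shares of all genes on that centred scale, and in the other settings whose counts follow, are not given. In LOH/DT-like cells the count of lower members (14) ranged from 6 centred to 24 clustered with the members, and in EC-like cells 14 were higher without the deepest cells, while among standard members alone 1 was lower in PT-like (of 3) and 3 in EC-like cells (of 5). The 3 settings on nuclear RNA and that of single clusters were chosen after seeing the data. No paired analysis was possible because each group has 1 library. Depth limits the low members, the 6 control lymphocyte-like cells and the deepest 4 control neutrophil-like cells. Doublets were left in, and a difference between the mice cannot be told apart from the treatment.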
